A study of Mus musculus with 8 samples.

Results

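Interleukin 10 (IL-10), the receptor through which it acts and the genes it is known to switch on in macrophages were compared between hemophagocytes and resting macrophages of the mouse spleen. The members were 10 genes chosen by symbol: Il10, Il10ra, Il10rb, Stat3, Socs3, Bcl3, Sbno2, Nfil3, Etv3 and Il1rn. All 10 were measured, among 19938 genes in all, each by its brightest probe set averaged over the 8 arrays. Hemophagocytes, macrophages that have engulfed blood cells, came from wild-type male C57Bl/6j mice aged 8 weeks that received 37.5 ug CpG1826, a Toll-like receptor 9 ligand, with 200 ug of the IL-10 receptor blocking antibody 1B1.3A. Resting macrophages came from wild-type males of the same strain and age given 200 uL PBS. Both treatments were intraperitoneal, in 4 doses on alternate days, and 20 cells per mouse were laser-captured from spleen touch preparations and pooled. Each group had 4 arrays, numbered 2, 3, 5 and 6 for hemophagocytes and 3, 4, 5 and 6 for resting macrophages. No arrayed group had CpG1826 without the antibody, the antibody alone, or engulfment alone, so the effects of these 3 on the pathway cannot be told apart. Nothing in the labels says that the arrays of a group came from separate mice, so the tests measure only the spread between these samples.

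IL-10 is the main cytokine by which macrophages and lymphocytes damp inflammation. It binds a receptor of a ligand-binding chain, encoded by Il10ra, and a chain shared with other cytokine receptors, encoded by Il10rb. The receptor activates the kinases Jak1 and Tyk2 and the transcription factor Stat3, which enters the nucleus and turns on genes whose products restrain inflammatory transcription. A blocking antibody against the receptor interrupts this relay at the cell surface.

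Stat factors bind the palindrome TTCNNNGAA, and Socs3 is the textbook direct target of Stat3, so the promoter windows of the members that hold this motif are shown. RefSeq promoter windows (GRCm38.p6, 250 bases before to 50 after the start site) were found for 7 of the 10 members, in 11 windows. The motif, searched as TTCNNNGAA, which reads alike on both strands, occurred in 3 of these windows, of 2 genes (Socs3 and Sbno2). It occurred in 8.3% of all 32851 windows in the table. The Socs3 window (chr11:117969317-117969616, minus strand) held it 154 bases before the start site. A 69-base stretch of each of 2 Sbno2 windows (chr10:80102690-80102758 and chr10:80101173-80101241, minus strand) held it 26 and 24 bases before the start site. A match describes the letters in the window and was not taken as a binding site. Capitals mark the motif, and sequences run 5′ to 3′.
Socs3: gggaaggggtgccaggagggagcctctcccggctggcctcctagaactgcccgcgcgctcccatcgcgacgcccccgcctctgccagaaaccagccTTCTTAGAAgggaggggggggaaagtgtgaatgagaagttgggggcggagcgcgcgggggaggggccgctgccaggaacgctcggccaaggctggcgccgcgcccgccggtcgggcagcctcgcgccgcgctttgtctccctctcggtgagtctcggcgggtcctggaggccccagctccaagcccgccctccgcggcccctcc
Sbno2 first start: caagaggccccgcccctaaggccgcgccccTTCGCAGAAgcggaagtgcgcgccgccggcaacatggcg
Sbno2 second start: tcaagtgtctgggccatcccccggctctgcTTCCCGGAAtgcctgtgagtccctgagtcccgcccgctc

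None of the 10 members differed between hemophagocytes and resting macrophages past the threshold. The largest change was that of Bcl3, at 0.24 on the log2 scale, and the lowest that of Il10, at -0.14. In limma with Benjamini-Hochberg adjustment over all genes, 0 of 10 members passed an adjusted p of 0.05 (smallest adjusted p = 0.75), and 0.01% of all genes did. At an unadjusted p under 0.05, 1 member was higher (Bcl3), where 1.53% of all genes were, and 0 were lower, where 5.05% of all genes were. The members' changes had a median of -0.03, beside a median of -0.04 over all genes, and 3 of 10 lay above 0, beside 36.1% of all genes. The 95% intervals of the 10 changes ran from a 0.751-fold level at the lowest bound (Il10) to 1.39-fold at the highest (Bcl3), so a 2-fold difference in probe set signal lay outside all 10. In pooled cells, fewer cells that express a gene and less RNA per cell cannot be told apart.

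**Figure D1:**
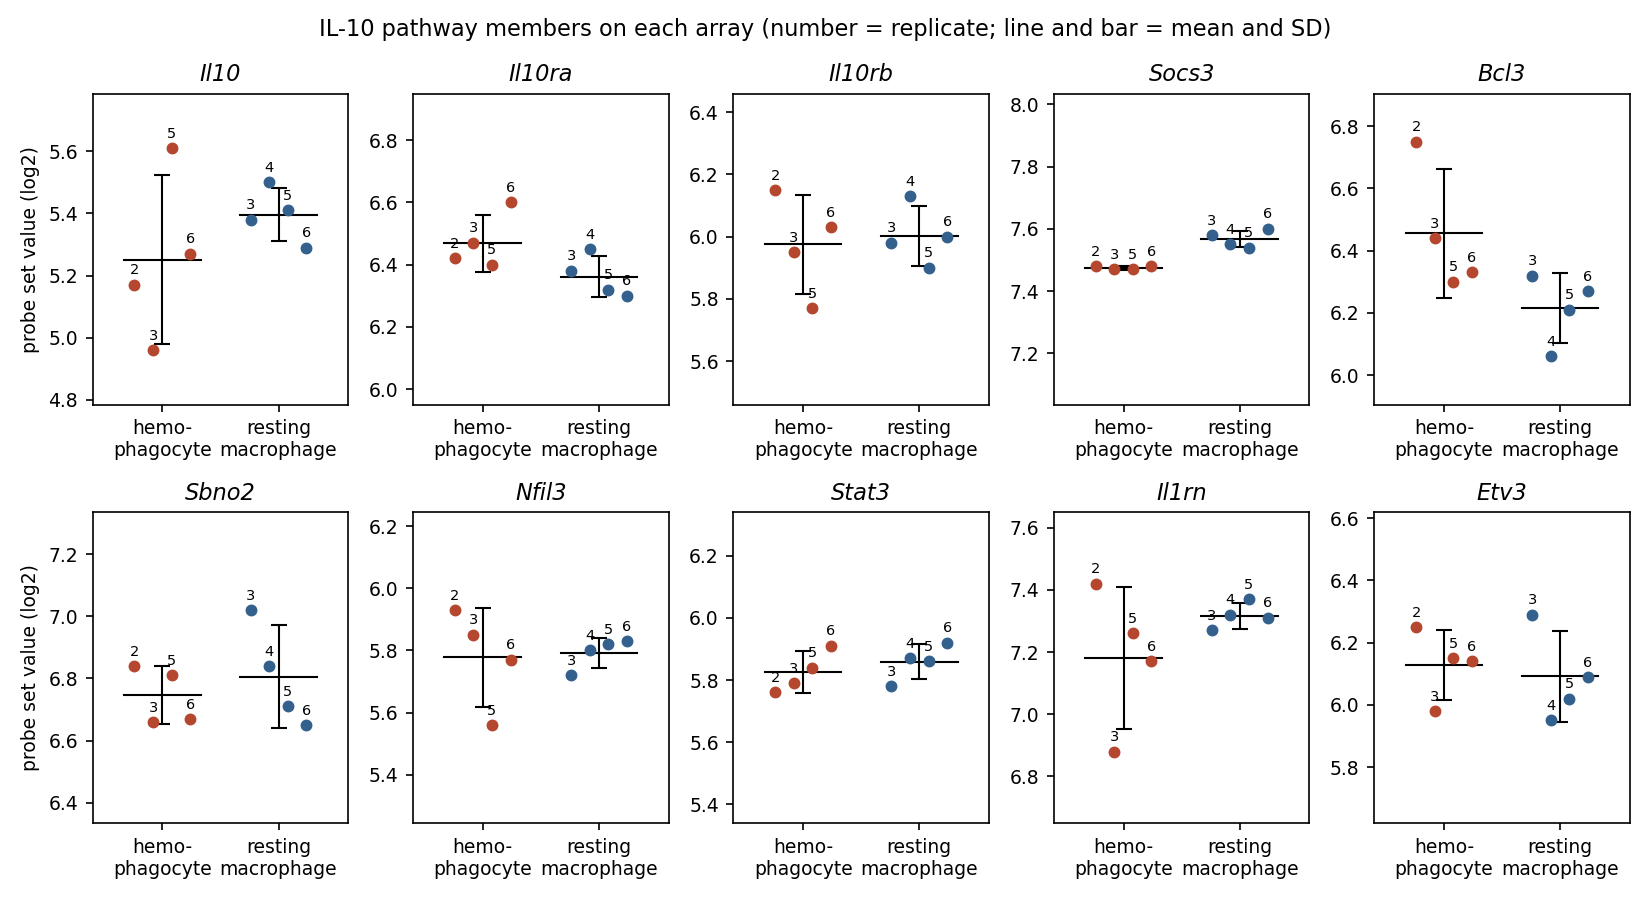
Log2 probe set value of each member on each array, hemophagocytes on the left and resting macrophages on the right of each panel; the digit beside a point is the replicate number, the line is the mean and the bar the SD (n = 4 each), and every panel spans 1 log2 unit. The groups overlap in every member except Socs3, where the 4 hemophagocyte arrays lie at 7.47 to 7.48 and the 4 resting arrays at 7.54 to 7.60.

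The arrays were not alike in macrophage transcripts, and this was set beside the members. Lyz2, the macrophage lysozyme, had values of 9.95 and 9.96 for hemophagocytes 3 and 5, of 5.86 and 6.55 for hemophagocytes 2 and 6, and of 7.45 to 8.89 for resting macrophages. Adgre1, which encodes an adhesion receptor of the macrophage surface, reached 7.38 in hemophagocyte 5, with 5.53 to 5.76 in hemophagocytes 2, 3 and 6 and 5.67 to 5.89 in resting macrophages. The 15 macrophage markers of the list averaged 6.22 to 7.09 in hemophagocytes and 6.39 to 6.46 in resting macrophages. Hemophagocytes 3 and 5 were highest, but without Lyz2 and Cd68, a pair picked after their values were seen, the mean was 6.20 on hemophagocyte 3 and 6.60 on hemophagocyte 5, against 6.14 to 6.26 on resting arrays. On hemophagocyte 3, 6 of the 15 markers lay above all resting arrays and 4 below them. Those above were Lyz2, Cd68 (9.66), Fcgr1 (7.08), Marco (6.00), Vsig4 (5.91) and Mertk (5.65). Those below were Csf1r (6.32), Vcam1 (6.38), the iron exporter gene Slc40a1 (5.73) and Spic (5.57), a transcription factor of red pulp macrophages. On hemophagocyte 5, 10 of the 15 lay above all resting arrays and 1 below them. The counts were 5 above and 2 below on hemophagocyte 6, and 2 above and 6 below on hemophagocyte 2. The share of all genes outside the resting range on each array was not taken, so these counts cannot be read as particular to macrophage markers. Olfactory and vomeronasal receptors, 1194 genes of sensory neurons, served as a gauge of array background. They averaged 5.75 to 6.07 on hemophagocyte arrays and 5.99 to 6.16 on resting arrays. Adgre1 lay below that mean on all resting arrays and on hemophagocytes 2 and 6. It was about level with that mean on hemophagocyte 3 and above it on hemophagocyte 5. Mean levels of the marker lists of other blood cells overlapped between the groups for 6 of 7 lists. B cell markers averaged 6.15 to 6.36 in hemophagocytes and 6.26 to 6.41 in resting macrophages, and T cell markers 6.42 to 6.54 in hemophagocytes and 6.48 to 6.52 in resting macrophages. Neutrophil markers averaged 6.29 to 6.71 in hemophagocytes and 6.29 to 6.35 in resting macrophages, platelet markers 6.45 to 7.39 in hemophagocytes and 6.70 to 6.92 in resting macrophages. Platelet markers on hemophagocytes 3 and 5 (7.39 and 7.20) and neutrophil markers on hemophagocytes 3, 5 and 6 (6.71, 6.43 and 6.45) exceeded all resting arrays. Single genes weighed on these means, as Pf4 stood at 10.35 and 9.11 on hemophagocytes 3 and 5, against 6.61 to 7.41 on resting arrays. S100a8 and S100a9 stood at 8.02 and 9.12 on hemophagocyte 3. Over the whole lists the median change was 0.005 for 5 platelet markers and -0.05 for 11 neutrophil markers, 4 of these above 0. Dendritic cell markers (6.81 to 6.97 in hemophagocytes, 6.87 to 6.91 in resting macrophages) and red cell markers (6.48 to 6.68 in hemophagocytes, 6.59 to 6.74 in resting macrophages) overlapped too. NK cell markers averaged 5.69 to 5.94 in hemophagocytes and 5.95 to 6.06 in resting macrophages, and the part of any of these levels in the members' values was not tested. With hemophagocytes 3 and 5 left out together, 0 of 10 members passed in limma (smallest adjusted p = 0.96), where 2 of all 19938 genes did. That fit rests on hemophagocytes 2 and 6, the arrays with the least Lyz2. With so few arrays and so few genes passing, it cannot show whether the macrophage signal of an array bears on the members.

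The cytokine itself, Il10, showed no difference larger than its spread. Its probe set stood at 5.17, 4.96, 5.61 and 5.27 on hemophagocytes 2, 3, 5 and 6, against 5.38, 5.50, 5.41 and 5.29 on resting macrophages 3, 4, 5 and 6. Hemophagocyte 5 lay above all resting arrays and the other 3 hemophagocytes below them. The means were 5.25 ± 0.27 in hemophagocytes and 5.40 ± 0.08 in resting macrophages (log2, SD, n = 4 each), a change of -0.14 (SE 0.12, limma adjusted p = 0.80). Leaving out hemophagocyte 3 gave a change of -0.05 and leaving out hemophagocyte 5 gave -0.26. Il10 was under the average of the sensory receptor genes on all 8 arrays, so whether its transcript was detected in these cells cannot be told. That background mean was itself lowest on hemophagocyte 3 (5.75) and reached 6.07 on hemophagocyte 5. With it as a covariate the change in Il10 was 0.05 (limma adjusted p = 0.99). The sensory receptor genes had a median change of -0.15 between the groups. The covariate therefore shares part of the group difference, in this fit and in the other fits that use it.

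The genes of the receptor chains had similar signals in both groups. Il10ra, whose product is the IL-10 binding chain, stood at 6.42, 6.47, 6.40 and 6.60 on hemophagocytes 2, 3, 5 and 6, against 6.38, 6.45, 6.32 and 6.30 on resting macrophages 3, 4, 5 and 6. Hemophagocytes 3 and 6 lay above all resting arrays and the other 2 within their range. The means were 6.47 ± 0.09 in hemophagocytes and 6.36 ± 0.07 in resting macrophages, a change of 0.11 (SE 0.07, adjusted p = 0.77) with a 95% interval of -0.05 to 0.27. The change stayed above 0 in 18 of 18 other settings, between 0.06 and 0.15, and was not called in any of them. Without hemophagocyte 6 it was 0.06.

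Il10rb, whose product also serves the receptors of IL-22 and the lambda interferons, stood at 6.15, 5.95, 5.77 and 6.03 on hemophagocytes 2, 3, 5 and 6, against 5.98, 6.13, 5.90 and 6.00 on resting macrophages 3, 4, 5 and 6. Its highest and its lowest value both fell in hemophagocytes. The change was -0.03 (SE 0.09, adjusted p = 0.96), and its sign differed between settings. The gene lay above the mean of the sensory receptor genes on 2 of 8 arrays, hemophagocytes 2 and 3.

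Stat3, the transcription factor that carries the signal to the nucleus, stood at 5.76, 5.79, 5.84 and 5.91 on hemophagocytes 2, 3, 5 and 6, against 5.78, 5.87, 5.86 and 5.92 on resting macrophages 3, 4, 5 and 6. The ranges coincided almost entirely. The Stat3 signal varied little, its range over the 8 arrays being 0.17, beside a median range of 0.39 over all genes. It lay above the mean of the sensory receptor genes on 1 of 8 arrays, so this need not hold for the transcript. The change was -0.03 (SE 0.07, adjusted p = 0.92). Stat3 acts through phosphorylation, which an array of transcripts does not read.

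Socs3 was the 1 member whose groups did not overlap. Its product binds the gp130 chain of the IL-6 receptor family and shuts off signalling there, and its window is the first of those printed above. The probe set stood at 7.48, 7.47, 7.47 and 7.48 on hemophagocytes 2, 3, 5 and 6, against 7.58, 7.55, 7.54 and 7.60 on resting macrophages 3, 4, 5 and 6. All 4 hemophagocyte values lay below all 4 resting values, as in 2.9% of all genes; 0 members, and 0.802% of all genes, were separated the other way. The separation was 0.09 (hemophagocyte mean 7.47 ± 0.01, resting mean 7.57 ± 0.03), and limma, which draws so small an SD towards that of other genes, gave a change of -0.09 with SE 0.06 and adjusted p = 0.76. The range of Socs3 over all 8 arrays was 0.13, and 0.792% of genes had a range as small or smaller. With the arrays rescaled by cyclic loess the change was -0.04. A dimmer second Socs3 probe set read 6.08 in hemophagocytes and 6.07 in resting macrophages on average, a difference of 0.01, so the 2 probe sets disagreed in sign.

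Bcl3, an atypical member of the IκB family that holds NF-κB p50 dimers on DNA and damps Tnf transcription, had the smallest p of the members. It stood at 6.75, 6.44, 6.30 and 6.33 on hemophagocytes 2, 3, 5 and 6, against 6.32, 6.06, 6.21 and 6.27 on resting macrophages 3, 4, 5 and 6. Hemophagocyte 2 was the highest, and hemophagocyte 5 lay below resting macrophage 3. The means were 6.46 ± 0.21 in hemophagocytes and 6.22 ± 0.11 in resting macrophages, a 1.18-fold higher level (log2 change 0.24, SE 0.11, unadjusted p = 0.046 in limma, adjusted p = 0.75). By unadjusted p it ranked 1203 among 19938 genes. When single arrays were left out, the unadjusted p stayed under 0.05 for 3 of 8 arrays (0.025, 0.035 and 0.043, without hemophagocyte 5, hemophagocyte 6 and resting macrophage 3). It was 0.13 without hemophagocyte 2 (change 0.14), 0.065 without hemophagocyte 3, 0.13 when resting macrophage 4 was left out, 0.079 without resting macrophage 5 and 0.058 without resting macrophage 6. With the replicate number as a block the change was 0.09 (unadjusted p = 0.31 in limma), and with the array background as a covariate it was 0.16 (unadjusted p = 0.23). Hemophagocyte 2, where Bcl3 was highest, was the array with the least Lyz2 (5.86). Hemophagocyte 6, the next lowest in Lyz2 (6.55), had less Bcl3 (6.33) than hemophagocyte 3 (6.44), where Lyz2 was 9.95. Whether Bcl3 and Lyz2 go together was not tested.

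The genes of the transcriptional repressors Sbno2, Nfil3 and Etv3 had similar signals in both groups. Nfil3 lay above the mean of the sensory receptor genes on 1 of 8 arrays and Etv3 on 5. For these, similar signals do not show similar transcript levels. Sbno2, a helicase-related corepressor, stood at 6.84, 6.66, 6.81 and 6.67 on hemophagocytes 2, 3, 5 and 6, against 7.02, 6.84, 6.71 and 6.65 on resting macrophages 3, 4, 5 and 6. The highest and the lowest value both fell in resting macrophages, and the change was -0.06 (SE 0.09, adjusted p = 0.90).

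Nfil3, a basic leucine zipper factor that restrains Il12b, stood at 5.93, 5.85, 5.56 and 5.77 on hemophagocytes 2, 3, 5 and 6, against 5.72, 5.80, 5.82 and 5.83 on resting macrophages 3, 4, 5 and 6. Hemophagocytes held both extremes, and the change was -0.02 (SE 0.09, adjusted p = 0.98). Etv3, an ETS family repressor, stood at 6.25, 5.98, 6.15 and 6.14 on hemophagocytes 2, 3, 5 and 6, against 6.29, 5.95, 6.02 and 6.09 on resting macrophages 3, 4, 5 and 6. Here resting macrophages held both extremes, and the change was 0.04 (SE 0.09, adjusted p = 0.94).

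Il1rn, the secreted antagonist of the IL-1 receptor, stood at 7.42, 6.88, 7.26 and 7.17 on hemophagocytes 2, 3, 5 and 6, against 7.27, 7.32, 7.37 and 7.31 on resting macrophages 3, 4, 5 and 6. Hemophagocyte 2 lay above all resting arrays and the other 3 hemophagocytes below them, which is the pattern of Il10 with another array on top. The means were 7.18 ± 0.23 in hemophagocytes and 7.32 ± 0.04 in resting macrophages, a change of -0.13 (SE 0.11, adjusted p = 0.78). Without hemophagocyte 3 the change was -0.03, and without hemophagocyte 2 it was -0.21 (adjusted p = 0.73). With the replicate number as a block it was also -0.21 (adjusted p = 0.67).

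**Figure D2:**
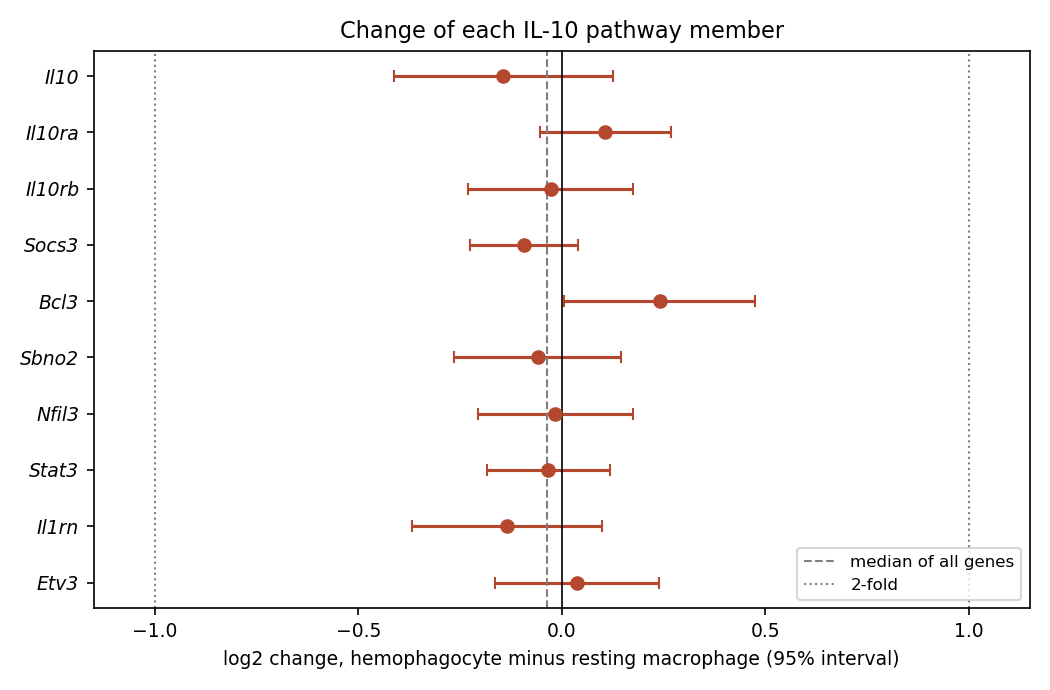
Log2 change of each member, hemophagocyte minus resting macrophage, with its 95% interval from limma (n = 4 arrays each); the dashed line is the median of all genes (-0.04) and the dotted lines mark a 2-fold change. The interval of Bcl3 (0.01 to 0.48) starts just above 0 and the other 9 include 0.

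Hemophagocyte arrays differed among themselves more than resting arrays in most members, as in most genes. The SD was larger in hemophagocytes for 7 of 10 members, beside 60.3% of all genes, and ran from 0.01 to 0.27 in hemophagocytes and from 0.03 to 0.17 in resting macrophages. High single values were rare on every array. Hemophagocytes 3 and 5 held most of them, with 1.77% and 1.64% of all genes over 0.5 above their own medians over the 8 arrays (log2), against 0.582% and 0.386% on hemophagocytes 2 and 6 and 0.286% to 0.487% on resting arrays. No member (0 of 10) lay that high on any array, which at such shares says nothing particular of the members. Against the sensory receptor genes, Socs3, Il10ra, Sbno2 and Il1rn lay above their mean on 8 of 8 arrays, Bcl3 on 7, Etv3 on 5, Il10rb on 2, Nfil3 and Stat3 on 1, and Il10 on 0. Only Socs3 (8 arrays) and Il1rn (1 array) exceeded the 90th percentile of those genes. For a probe set near background the interval of a change bounds the signal and not the transcript.

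The rest of the pathway was described from 6 lists, of 102 different genes of which 94 were measured. Over all 6 lists, 0 genes passed an adjusted p of 0.05, where 0.01% of all genes did, and the median change was -0.001. An unadjusted p under 0.05 was reached by 2 with higher and 5 with lower levels, close to the shares of all genes (1.53% and 5.05%). Groups without overlap, hemophagocytes lower, were found in 2.9% of all genes, and hemophagocytes higher in 0.802%. Of the 94 measured list genes, those separated with hemophagocytes lower were Il20ra, Stat6, Il4ra, Cd80 and Lepr. In each list, 0 genes were separated the other way. The single genes named from each list below are to be read beside these shares. Among IL-10 family cytokines and their other receptor chains, 9 of 11 were measured, 0 had higher and 1 had lower levels at an unadjusted p below 0.05, and the median was -0.09. The 1 was Il20ra, a receptor chain for IL-19, IL-20 and IL-24, with a mean of 5.64 in hemophagocytes and 5.87 in resting macrophages and no overlap (change -0.24, adjusted p = 0.75). Il20 (-0.22), Il22ra2 (-0.12), the soluble decoy that binds IL-22, and Il22ra1 (-0.16) followed by p. None of these 3 passed.

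In the Jak-Stat relay and its brakes 22 of 24 genes were measured, 1 had higher and 0 had lower levels at an unadjusted p below 0.05, and the median change was 0.02. Socs6, a member of the suppressor of cytokine signalling family, stood at 6.32, 5.94, 5.76 and 6.67 on hemophagocytes 2, 3, 5 and 6, against 5.94, 5.60, 5.65 and 5.88 on resting macrophages 3, 4, 5 and 6 (change 0.41, adjusted p = 0.75). Hemophagocytes 2 and 6 lay above all resting arrays and the other 2 within their range. The phosphatase gene Ptpn2 (-0.18), Stat6 (-0.13), which carries the IL-4 signal and whose groups did not overlap, and Pias3 (-0.14), an inhibitor of Stat3, were the next by p. The kinases next to the receptor, Jak1 (0.04) and Tyk2 (0.07), had changes near 0.

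Of transcription factors known to act on the Il10 gene, 12 of 14 were measured, 0 had higher and 1 had lower levels at an unadjusted p below 0.05, and the median was -0.02. The 1 was Ahr, the aryl hydrocarbon receptor, at 6.53 in hemophagocytes and 6.75 in resting macrophages (change -0.22, adjusted p = 0.75). Irf4 (-0.22), the NF-κB subunit gene Rela (-0.18) and Atf1 (0.37) followed, the last with resting macrophage 5 alone at 5.59 and the other resting arrays at 6.74 to 6.98. Among other IL-10 induced genes of macrophages 17 of 18 were measured, 0 had higher and 1 had lower levels at an unadjusted p below 0.05, and the median was -0.04. The 1 was the ETS family gene Etv6 (-0.18, adjusted p = 0.75). Il4ra (-0.13), an IL-4 receptor chain whose groups did not overlap, the Fc receptor gene Fcgr1 (0.19) and the phosphatase gene Dusp1 (-0.12) came next. Hmox1, heme oxygenase, stood at 7.18, 6.77, 7.98 and 6.91 on hemophagocytes 2, 3, 5 and 6, against 6.98 to 7.12 on resting arrays (change 0.16, adjusted p = 0.87). Hemophagocyte 5 was far the highest, and hemophagocytes 3 and 6 lay below all resting arrays. The hemoglobin scavenger receptor gene Cd163 had a change of -0.13 and did not pass.

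Of the inflammatory genes that IL-10 restrains, all 23 were measured, and at an unadjusted p below 0.05 there was 1 with higher and 1 with lower levels, with a median change of 0.04. Ccl5 stood at 7.36, 10.42, 10.74 and 8.18 on hemophagocytes 2, 3, 5 and 6, against 7.60, 7.38, 7.51 and 7.47 on resting macrophages 3, 4, 5 and 6 (change 1.69, adjusted p = 0.75). Hemophagocytes 3, 5 and 6 lay above all resting arrays and hemophagocyte 2 below them. Cd80, a costimulator of T cells, averaged 7.32 in hemophagocytes and 7.53 in resting macrophages, with no overlap (change -0.21, adjusted p = 0.75), and the chemokine gene Ccl3 (0.35) and Il12a (-0.17) followed. Tnf (-0.12), Il6 (0.04), Il12b (-0.07) and Il1b (0.09), cytokines whose output IL-10 is known to curb, did not pass, with Tnf having the smallest adjusted p of these (0.77, limma). Of other cytokines and receptors that signal through Stat3, 11 of 12 were measured and 1 was lower at an unadjusted p under 0.05, the leptin receptor gene Lepr (-0.22, adjusted p = 0.75), whose groups did not overlap. The median was -0.01, and Osmr (-0.16), Csf3r (0.03) and Il21 (-0.04) came next.

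**Figure D3:**
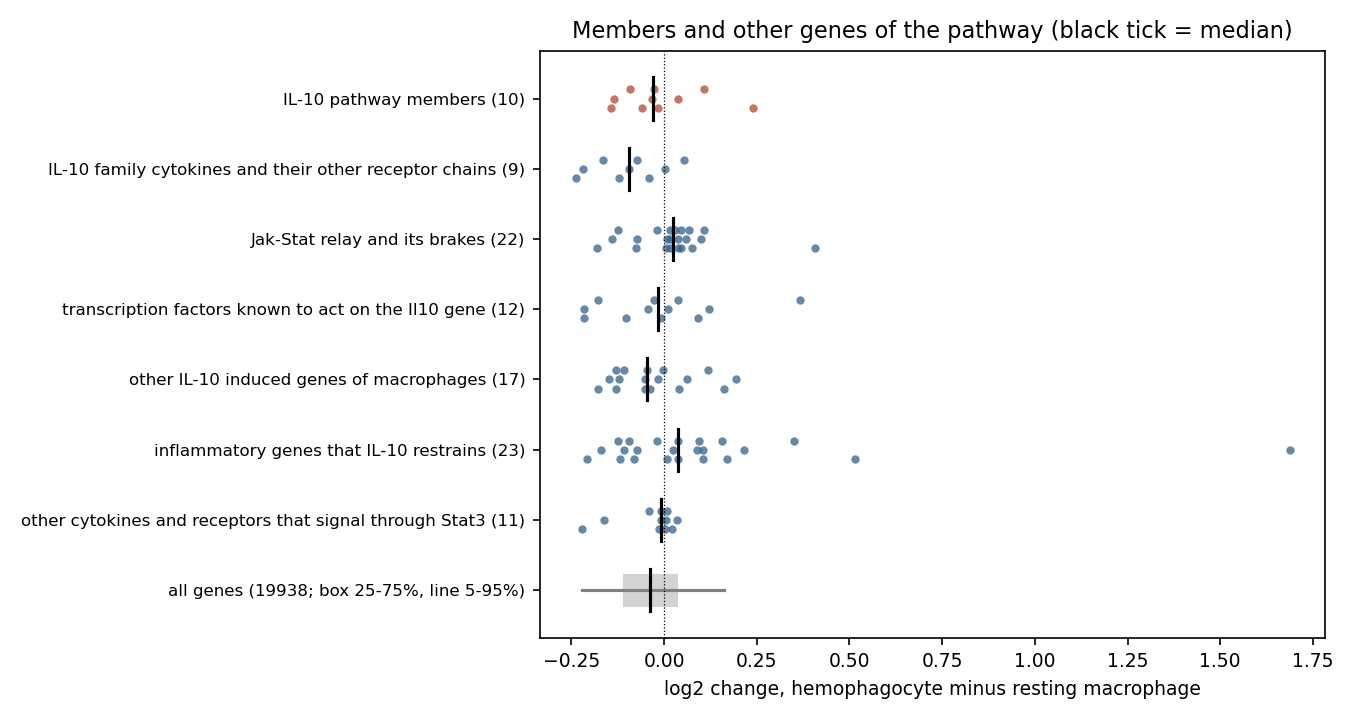
Log2 change, hemophagocyte minus resting macrophage, of every measured gene of the members (red) and of the 6 other pathway lists (blue), 1 point per gene, with the number measured in brackets and a black tick at the median; the grey bar shows all 19938 genes. Ccl5 at 1.69 stands apart in the list of restrained genes, and the list medians lie between -0.09 and 0.04.

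The genes most like Il10 and Il10ra in pattern were found by Pearson correlation over the 8 arrays, among named genes above the median level, as a description without a test. For Il10 they were Psmb7 (r = 0.98), Sprr2f (0.97) and Krtap4-1 (0.96), of 8618 genes searched. For Il10ra they were Dffa (0.97), Prelid3b (0.92) and Bpifb6 (0.91), of 8617 searched. The points share the array and its background, and 3 picked from so many genes over 8 arrays are the highest of a wide spread.

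**Figure D4:**
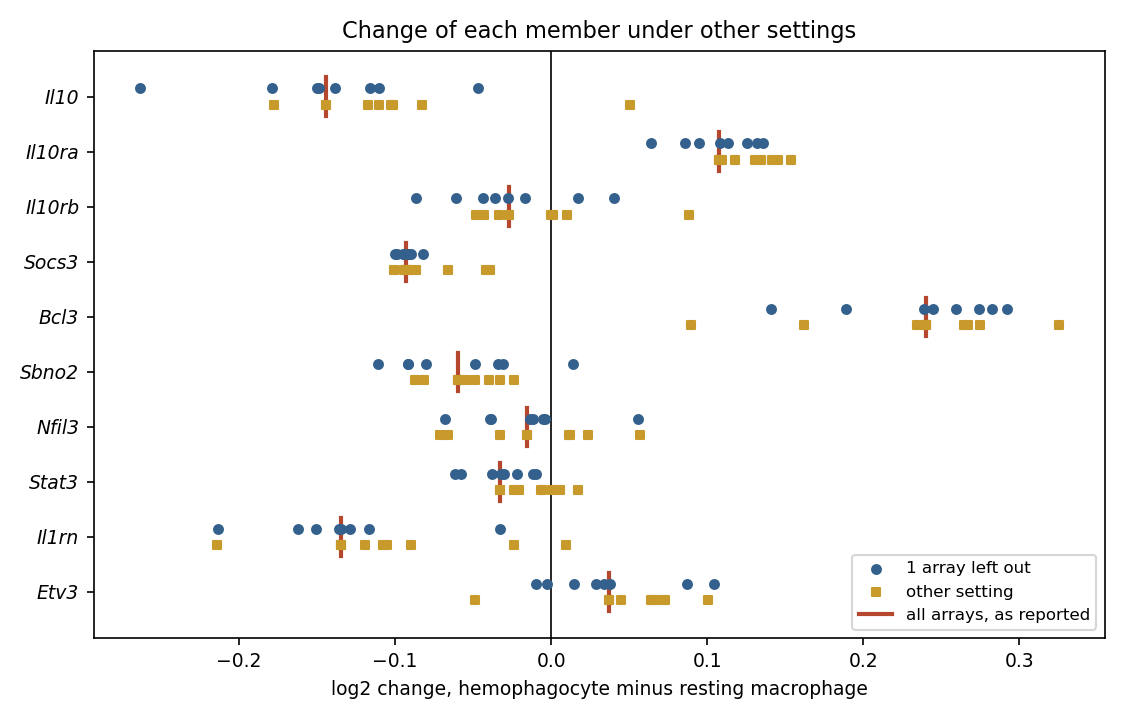
Log2 change of each member, hemophagocyte minus resting macrophage, as reported (red line), with 1 array left out (blue points) and under the other settings (yellow squares). The changes of Il10ra, Socs3 and Bcl3 keep their sign in all 18 settings, and no member is called in any.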

How the data were processed

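RNA of laser-captured spleen cells, amplified by WT-Ovation One-Direct, was read on 8 Affymetrix mouse Gene ST 1.0 arrays, per the labels' protocols. The values deposited by the authors are log2, judged from their range, with array medians of 6.10 to 6.17. The submitters' processing notes name Affymetrix Expression Console 1.1. Background correction, probe summary and normalization were not given in the sources used here. Arrays have no read depth, and 4 per group limit the precision.

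Of 35556 probe sets, 21789 had 1 gene symbol in the platform annotation, 1621 had several and 12146 none or no entry. Those with 1 were used, the one with the highest mean standing for each of 19938 genes. Groups came from sample titles. Hemophagocytes were compared with resting macrophages by limma 3.58.1 in R 4.3.3 (lmFit, eBayes, Benjamini-Hochberg over all genes, threshold 0.05), with no filter or block. The script was tested on simulated data. The members and lists were chosen with earlier results of these data known. From each of the 6 pathway lists, the 4 genes of smallest p are named, and other genes named were chosen after their values were seen. Alternatives were 3 scalings, a level filter, a trended prior, array weights, mean probe sets, arrays left out, a replicate block and, added after seeing the data, background as a covariate. Sequences are from RefSeq, GRCm38.p6. Figures were drawn with matplotlib 3.10.9.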

Additional observations from a re-analysis of the deposited data

Results flagged for a closer look

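Among 48 genes (the members, the named genes of the pathway lists and the macrophage markers), each tested in both groups, 5 arrays stood far from the other 3 of their group, and none of them in a member. About 1 in 20 groups is picked out this way by chance. Il20ra was low on hemophagocyte 3 (5.38). Adgre1 was high on hemophagocyte 5 (7.38). Il22ra2 was high on resting macrophage 4 (7.21). Fcgr1 was low on resting macrophage 4 (6.81). Lyz2 was low on resting macrophage 6 (7.45).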

How the results depend on the processing

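No member and no gene of the 6 pathway lists passed in any of 18 other settings (smallest adjusted p of a member 0.58 in limma, without hemophagocyte 5). Of 175 refitted member changes, 155 kept their sign and 20 turned, all of changes that were not called. Il10rb turned with quantile normalization (0.0011), median centring (0.00017), cyclic loess (0.010) and without hemophagocytes 3 and 5 (0.089). Nfil3 turned under the same 4 settings (0.012, 0.011, 0.024 and 0.057). Stat3 turned with quantile normalization (8.0e-04) and cyclic loess (0.0057). With the array background as a covariate, Il10 (0.051), Stat3 (0.017) and Il1rn (0.0095) turned. With single arrays left out the changes ran from -0.087 to 0.040 for Il10rb, -0.11 to 0.014 for Sbno2, -0.068 to 0.056 for Nfil3 and -0.0095 to 0.10 for Etv3. Members above 0 numbered 3 as deposited, 6 after quantile normalization, 5 after median centring and 6 after cyclic loess. At an unadjusted p under 0.05 higher genes made up 23.3% of the genes under that p as deposited, and 39.5%, 41.7% and 52.7% after these scalings. The count of all genes past the threshold was 2, and 1 with median centring, cyclic loess, the trended prior or the background covariate, and 1 to 11 with single arrays left out. The titles share numbers 3, 5 and 6 between groups. As the labels do not say what a shared number marks, the numbers were not taken as pairs in the main fit. Deviations of same-numbered arrays from their group means had correlations of 0.17, 0.07 and 0.12. Those of differently numbered arrays ran from -0.24 to 0.18, so these values do not settle whether the numbers are pairs. With the replicate block 7 genes passed, none a member, the change of Etv3 was -0.049 and that of Bcl3 0.09. The causes were not tested. Only 5 of 10 members passed the level filter, and signals near background limit what a change in the others can show.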
